A study of Ovis aries with 30 samples.

Results

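The immediate early genes FOS, FOSB, JUN, JUNB, EGR1, EGR3, ATF3, IER2, DUSP1 and MYC were examined in brown adipose tissue (BAT) and thyroid tissue of newborn Romney lambs. The members were taken by gene symbol from a table of RNAseq read counts, and all 10 were present among its 28524 genes. Of the 15 lambs, each from a different twin set, 12 stayed indoors with their dams for 2 days, 6 of them at 4 °C (cold) and 6 at an ambient temperature of 20 to 22 °C (AT), and the other 3 were controls sampled at the start, about 24 h after birth. Perirenal BAT and thyroid came from the same lamb, which gave 30 libraries. By sampling, the AT and cold lambs had aged 2 days beyond the controls, so that age and treatment cannot be told apart in a comparison with the controls, and only cold against AT compared lambs of one age. The study used 2 controls (Controls 1 and 3 here), and Control 2 was left out of the comparisons below unless it is named. Libraries were made from whole pieces of tissue, in which fewer cells of a type and less RNA per cell cannot be told apart.

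Immediate early genes are transcribed within minutes of a stimulus, such as a growth factor, a hormone, nervous input or cell stress, from transcription factors already present in the cell, and most of their transcripts are short-lived. In brown fat, noradrenaline released by sympathetic nerves in the cold acts through cyclic AMP, and in the thyroid, thyrotropin acts through the same messenger. FOS and FOSB, JUN and JUNB encode subunits of the dimeric transcription factor AP-1, and ATF3 encodes a stress-induced factor of the wider bZIP family that can dimerize with JUN proteins. EGR1 and EGR3 are zinc-finger transcription factors, IER2 is a short nuclear protein, DUSP1 is a phosphatase that switches off MAP kinases, and MYC is a transcription factor of growth and ribosome production.

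In the Oar_rambouillet_v1.0 assembly used by the authors, FOS lies at chr7:90309389-90312787 on the plus strand and FOSB at chr14:56565802-56572755 on the plus strand. JUN (chr1:35097694-35100335) and JUNB (chr5:11122057-11123921) are each annotated as a single exon interval on the minus strand. EGR1 lies at chr5:52194312-52196633 and EGR3 at chr2:45145094-45150417, both on the plus strand. The remaining members lie on the minus strand, with ATF3 at chr17:38274586-38287479, IER2 at chr5:10821963-10826361, DUSP1 at chr16:4820874-4823981 and MYC at chr9:27505598-27510575. Reads were counted over the exons of each gene. The FOSB locus overlaps LOC105616901 on the other strand, and because the counting is not stated to use strand, reads of the pair cannot be told apart. A later sheep assembly places ATF3 on another chromosome than this one does.

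A BAT library held 31556500 to 37025998 counts and a thyroid library 25062784 to 30124871. In BAT, 2 uncharacterized genes (LOC114112617 and LOC114115287) took 43.8 to 76.5% of the counts, which left between 23.5 and 56.2% for every other gene, the members included. Normalized counts are therefore counts divided by size factors taken from the reference genes ACTB, RPL19 and HUWE1. The tissue labels matched their markers: thyroglobulin (TG) was at 1216226 to 5344179 normalized counts in thyroid and 9.47 to 1108 in BAT, and UCP1 was at 195 to 87348 in BAT and 3.01 to 598 in thyroid. Thyroid libraries were not alike in other cell markers. The summed normalized count of the skeletal muscle markers (8 of 9 listed genes measured, ACTA1 and CKM among them) was 3494832 in thyroid AT 3 and 289962 in thyroid Control 1, against 128 to 4084 in the other 13 thyroid libraries and 135 to 469 in BAT. For ATF3 and MYC, the log2 fold changes within thyroid are given with and without these libraries. Comparisons of AT lambs between tissues, and the correlations, include AT 3. Every member passed the filter on low counts in both tissues. The members with the fewest reads were EGR3, with 9 to 82 reads per thyroid library, and ATF3 and FOSB, so the counting error of these 3 is wider than that of the others.

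Per kilobase of exon, the order of the members was similar at its ends in both tissues. In BAT, DUSP1 was highest, with 3133 ± 1891 normalized counts per kilobase (SD over 14 libraries), and it stood above JUN in 14 of 14 libraries. JUN (1247 normalized counts per kilobase) and FOS (1198) were not separated by the lamb-to-lamb spread, with JUN higher in 9 of 14 libraries, nor were EGR1 (628), JUNB (616) and IER2 (540). MYC followed at 249.7, and FOSB (30.4), EGR3 (18.3) and ATF3 (17.4 normalized counts per kilobase) were far below. In thyroid, DUSP1 again led, with 2346 ± 1187 normalized counts per kilobase, and was above JUN (1503) in 14 of 14 libraries. IER2 (758) was above FOS (732) in 9 of 14 thyroid libraries and FOS was above JUNB (589.7) in 8 of 14, so these neighbors did not differ beyond their spread. EGR1 (424), MYC (206), ATF3 (64.8), FOSB (52.9) and EGR3 (6.79 normalized counts per kilobase) completed the thyroid order.

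**Figure D1:**
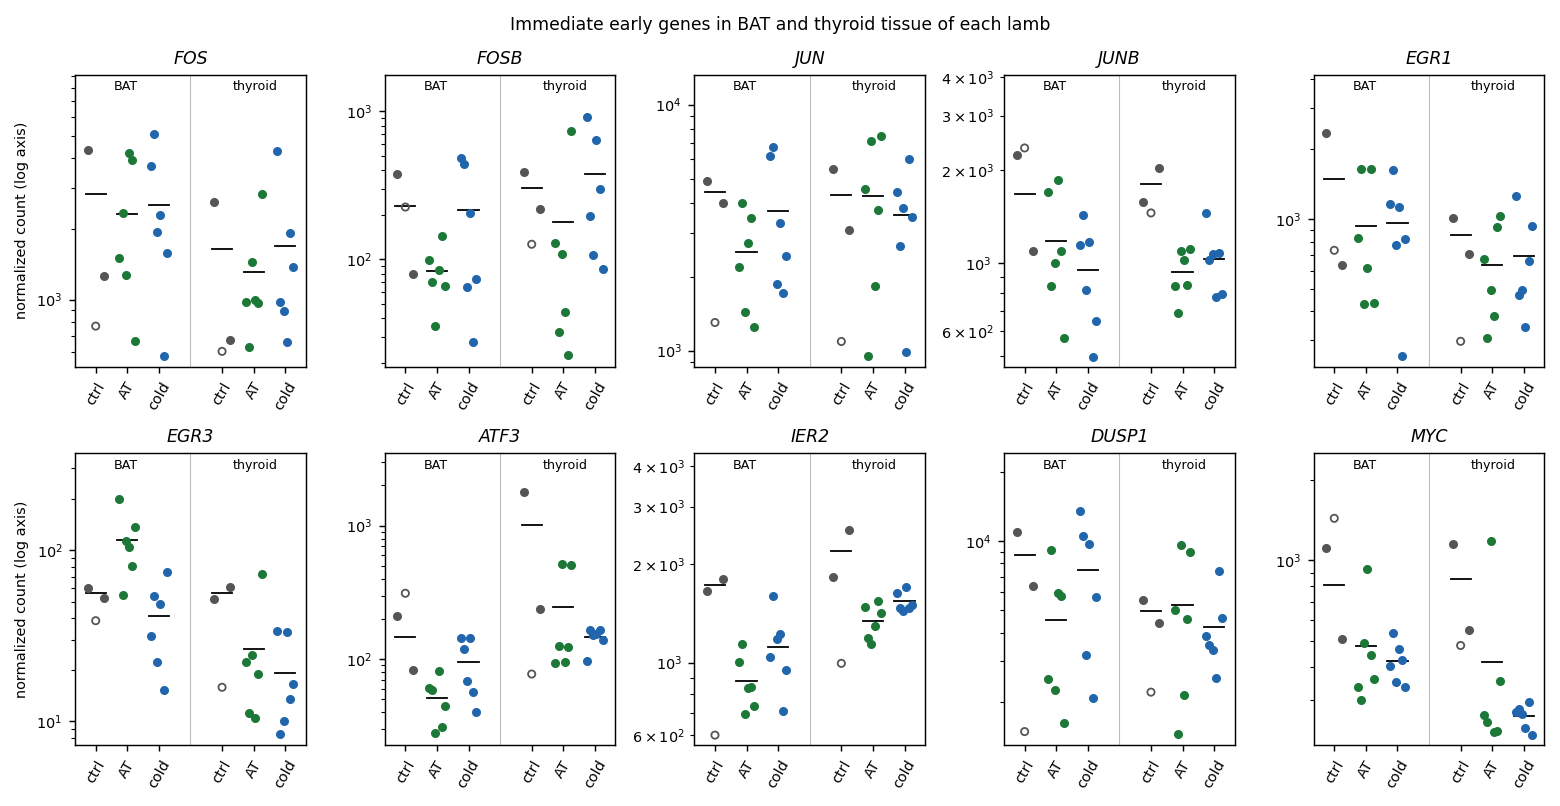
Normalized counts (log axis) of each immediate early gene in every library, with BAT on the left and thyroid on the right of each panel and controls in grey, AT lambs in green and cold lambs in blue. Bars mark the means of the libraries used, and the open circles are Control 2, which was left out. The points of a group spread widely for FOS and FOSB (FOS in cold BAT ran from 575 to 5109) and narrowly for IER2 in thyroid.

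The spread between lambs of a group was wide for most members. The highest BAT library of the cold group held 8.89 times the FOS and 17.7 times the FOSB of the lowest, and in AT thyroid the FOSB ratio was 33.0. Some libraries were high or low for many members. Control 1 was among the 3 highest of 14 libraries for 9 of 10 members in BAT and for 7 of 10 in thyroid. BAT of Cold 5 was among the 3 lowest for 8 of 10 members, thyroid of AT 4 for 8 and thyroid of AT 2 for 7. These placings describe single libraries chosen after their values were seen.

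In BAT, the AP-1 genes FOS and JUN did not separate the groups. FOS was at 4362 and 1262 normalized counts in the 2 controls, had a lowest, median and highest value of 668, 1926 and 4210 in AT lambs and of 575, 2122 and 5109 in cold lambs. JUN was at 4875 and 3983 in the controls, ran from 1244 through a median of 2467 to 4001 in AT lambs, and from 1723 through 2859 to 6711 in cold lambs. The 3 groups overlapped for both genes, and the log2 fold change (log2FC) of FOS between cold and AT lambs was 0.13 ± 0.52 (SE; 95% interval -0.99 to 1.24), that of JUN 0.56 ± 0.37. FOSB was at 379.7 and 79.6 normalized counts in the controls, 35.4, 77.2 and 143 in AT lambs and 27.6, 140.3 and 487 in cold lambs. For FOSB, 3 cold lambs (Colds 1, 2 and 4) lay above every AT lamb, 2 lay within the AT range and Cold 5 lay below it.

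JUNB in BAT was at 2244 and 1093 normalized counts in the controls, between 570.0 and 1855 (median 1048) in AT lambs and between 497 and 1425 (median 981) in cold lambs, and the groups overlapped. ATF3 was at 211 and 82.7 normalized counts in the controls, 27.9, 51.8 and 82.2 in AT lambs and 40.1, 94.6 and 143 in cold lambs. All 6 AT lambs were below both controls for ATF3, though the highest of them was within 1 normalized count of Control 3, and the cold lambs overlapped both other groups. EGR1 was at 2349 and 632 normalized counts in the controls, 432 to 1642 (median 725) in AT lambs and 257 to 1623 (median 974) in cold lambs. EGR3 had another pattern: 60.2 and 52.3 normalized counts in the controls, 54.6, 109 and 198 in AT lambs and 15.3, 40.1 and 75.0 in cold lambs. Only the lowest AT lamb and the highest cold lamb brought the AT and cold ranges of EGR3 into overlap.

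IER2 in BAT was at 1661 and 1803 normalized counts in the controls, 698, 840.2 and 1139.8 in AT lambs and 709.7, 1112 and 1600.5 in cold lambs. Both controls were above all 12 treated lambs for IER2, and Control 2, at 600.2, was below all of them. DUSP1 was at 10969 and 6388 normalized counts in the controls, 1617 to 9137 (median 4137) in AT lambs and 2083 to 13552 (median 7739) in cold lambs, with full overlap. MYC was at 1109.8 and 509 normalized counts in the controls, 302 to 931 (median 402) in AT lambs and 337 to 537 (median 414) in cold lambs. Of the 12 treated lambs, 10 lay below the lower control for MYC, and AT 4 and Cold 2 did not.

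The comparison of cold with AT lambs asked what the temperature did at one age. In BAT, 0 of 10 members passed the call (edgeR's quasi-likelihood test, adjusted p under 0.05 and an absolute log2FC of at least 1), where 0.275% of the 14905 genes tested did. An unadjusted p under 0.05 was seen in 3 members, where 12.3% of all genes did, and DESeq2 called 1 member, EGR3 (adjusted p = 0.00968). EGR3 had a log2FC of -1.46 ± 0.37 for cold against AT (95% interval -2.24 to -0.68, adjusted p = 0.116), FOSB of 1.39 ± 0.64 (adjusted p = 0.397) and ATF3 of 0.89 ± 0.37 (adjusted p = 0.351). The signs of the 3 thus differed, and the median log2FC of the members was 0.24, against -0.05 for all genes. The smooth muscle and pericyte markers (7 of 7 measured, none at 0) summed to 10721 to 21351 normalized counts in AT BAT and 17875 to 35129 in cold BAT, and their part in these values was not tested. DUSP1 had a log2FC of 0.72 ± 0.48 with a 95% interval of -0.31 to 1.75.

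Against the controls, BAT of cold lambs again had 0 of 10 members called by edgeR, with 1.21% of all genes called, and DESeq2 also called 0. An unadjusted p under 0.05 was seen in 2 members, IER2 and MYC, and in 18.1% of all genes. The log2FC was negative for all 10 members, as for 58.8% of all genes, with a median of -0.53 against -0.10 for all genes. The count of 10 rested on the controls used and on scaling: over 16 settings FOSB turned positive in 7, FOS in 5 (up to 1.39), JUN and DUSP1 in 4 each, and EGR1 and IER2 in 1 each. IER2 was lower in cold lambs without overlap, as were 15.7% of all genes, with a log2FC of -0.63 ± 0.25 (adjusted p = 0.190), and MYC had a log2FC of -0.94 ± 0.35 (adjusted p = 0.169). For FOS the log2FC was -0.15 ± 0.73 with an interval from -1.71 to 1.41, which spans more than 2-fold in either direction. With all 3 controls, MYC passed the call in cold BAT (log2FC of -1.21, adjusted p = 0.0454).

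BAT of AT lambs, compared with the same controls, also had 0 of 10 members called by edgeR, where 6.07% of all genes were called. An unadjusted p under 0.05 was seen in 3 members, against 26% of all genes, and DESeq2 called 1 member, ATF3 (adjusted p = 0.0303). IER2 was lower by adjusted p alone, a criterion that 9.30% of all genes met in either direction, with a log2FC of -0.98 ± 0.25 (adjusted p = 0.0227), just short of the fold threshold. With all 3 controls its log2FC was -0.55 (adjusted p = 0.224). ATF3 had a log2FC of -1.51 ± 0.48 (adjusted p = 0.0572), and with IER2 it was one of 2 members lower without overlap, as were 15.3% of all genes. FOSB (log2FC of -1.47 ± 0.83), DUSP1 (-0.94 ± 0.65) and MYC (-0.76 ± 0.36) were lower by their estimates and did not pass. EGR3 was the 1 member with a positive log2FC, 1.03 ± 0.54 (adjusted p = 0.240), and the median log2FC of the members was -0.79 against -0.03 for all genes. The smooth muscle and pericyte markers summed to 24265 to 38994 normalized counts in the 3 control BAT libraries, above all 6 AT lambs (10721 to 21351), and their part in these values was not tested. The reference gene ACTB itself had a log2FC of -0.67 ± 0.21 (adjusted p = 0.0611) in this comparison.

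**Figure D2:**
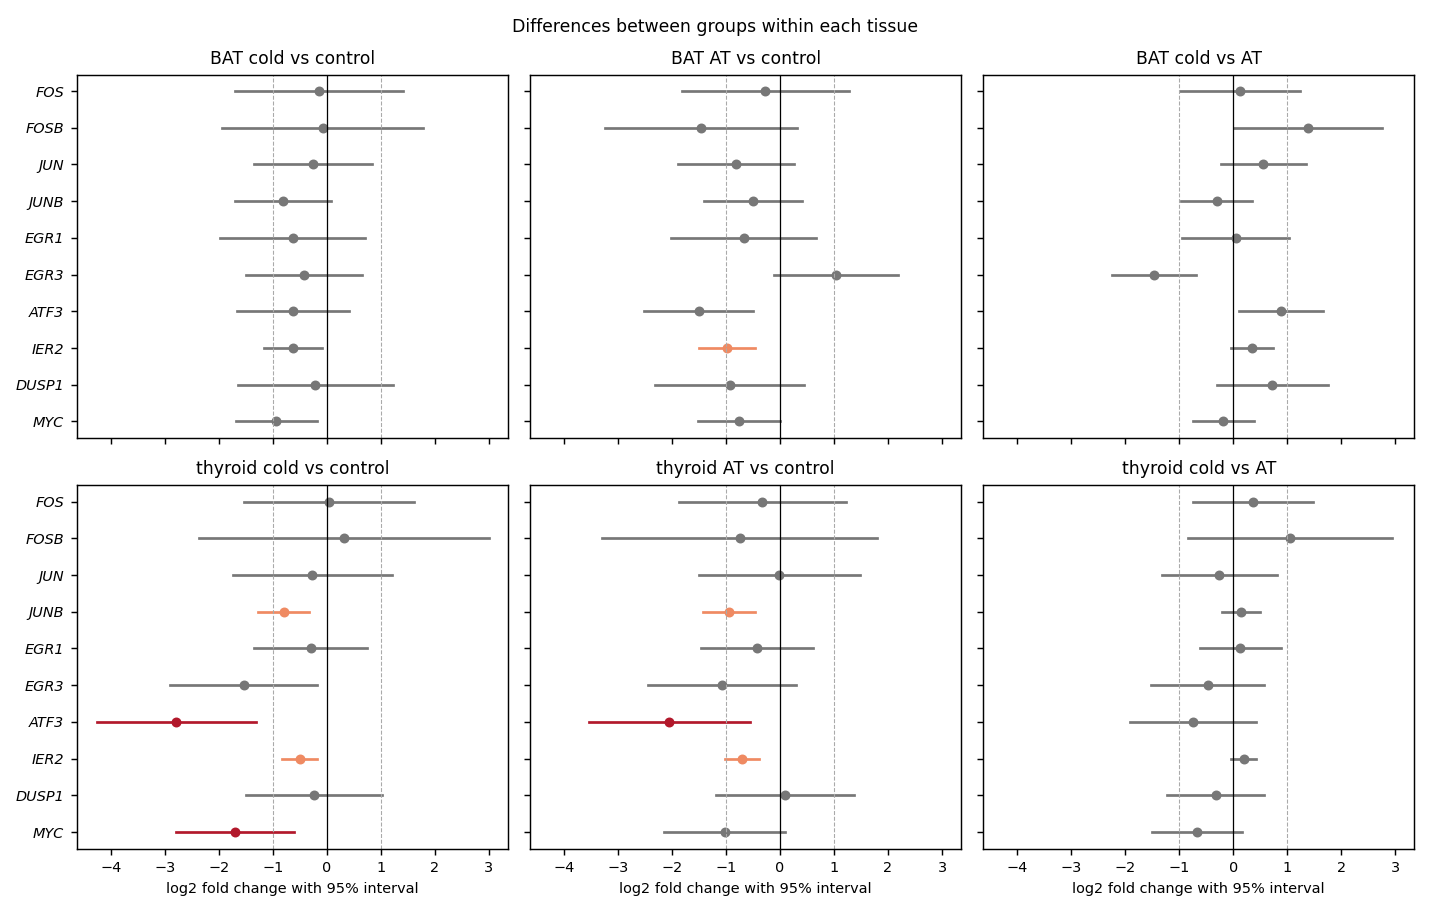
Log2FC of the 10 members in each comparison, with 95% intervals, from the edgeR fit; red points were called, orange points had an adjusted p under 0.05 with a fold below the threshold, and grey points had neither. Dashed lines mark a log2FC of -1 and 1. Called points stand only in the thyroid comparisons with the controls, at ATF3 and MYC.

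In thyroid, ATF3, MYC, JUNB and IER2 carried the differences from the controls. ATF3 was at 1783 normalized counts in Control 1 and 238 in Control 3, at 93.3, 125 and 519 (lowest, median and highest) in AT lambs and at 97.2, 153 and 166 in cold lambs. MYC was at 1149 and 550.3 normalized counts in Controls 1 and 3, at 228, 257 and 1182 in AT lambs and at 223.5, 269 and 296 in cold lambs. Every cold lamb was below both controls for both genes, but AT 3 and AT 6 were above Control 3 for ATF3, and AT 3 was above both controls for MYC. JUNB was at 1570.1 and 2034.5 normalized counts in the controls, at 689.6, 936 and 1111 in AT lambs and at 775, 1048 and 1446 in cold lambs. IER2 was at 1829.6 and 2546 normalized counts in the controls, at 1139.8, 1356 and 1546 in AT lambs and at 1440.2, 1486.5 and 1709 in cold lambs. For JUNB and IER2, all 12 treated lambs were below both controls. Control 2, left out, was above all of them for JUNB, at 1452, and below all of them for IER2, at 994.8.

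Thyroid of cold lambs had 2 of 10 members called lower than in the controls, where 6.15% of all genes were called lower. ATF3 fell, with a log2FC of -2.79 ± 0.69 (95% interval -4.27 to -1.32, edgeR adjusted p = 0.0152), and MYC fell, with a log2FC of -1.70 ± 0.51 (interval -2.79 to -0.60, adjusted p = 0.0336). JUNB (-0.81 ± 0.23, adjusted p = 0.0242) and IER2 (-0.51 ± 0.15, adjusted p = 0.0314) were lower by adjusted p alone, which 16.9% of all genes were. The groups did not overlap for 5 members (JUNB, EGR3, ATF3, IER2 and MYC), all lower in cold lambs, as were 28.5% of all genes. That placing rests on the 2 controls used. Control 2 was above all cold lambs for JUNB and MYC (481), below all of them for ATF3 (77.5) and IER2, and within their range for EGR3 (15.8). The median log2FC of the members was -0.41, and that of all genes was -0.28. With the size factors that edgeR's TMM derives from all genes, which moved the median of all genes to 0.02, ATF3 remained called and MYC did not (log2FC of -1.45, adjusted p = 0.0867), and JUNB and IER2 lost the adjusted p.

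Thyroid of AT lambs, set against the same controls, had 1 of 10 members called lower, where 5.98% of all genes were called lower. ATF3 fell, with a log2FC of -2.05 ± 0.69 (edgeR adjusted p = 0.0498), a value at the threshold that did not pass with TMM size factors (-1.86, adjusted p = 0.109). JUNB (-0.95 ± 0.22, adjusted p = 0.0105) and IER2 (-0.70 ± 0.15, adjusted p = 0.00636) were again lower by adjusted p alone, as were 18.7% of all genes, and were the 2 members lower without overlap, as were 21.7% of all genes. Both lost the adjusted p with TMM. MYC had a log2FC of -1.03 ± 0.52 (adjusted p = 0.169), which became -1.69 (adjusted p = 0.000235) without AT 3. The median log2FC of the members was -0.73 against -0.28 for all genes. In thyroid the fibroblast markers (6 of 6 measured, none at 0) summed to 11849 to 23283 normalized counts in the 3 controls, 33091 to 141779.5 in AT lambs and 28745 to 129061 in cold lambs, and the macrophage markers (6 of 8 measured, none at 0) to 1631 to 2201, 2672 to 5562 and 3114 to 8773, and their part in the values above was not tested.

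The ATF3 call rested on Control 1. ATF3 had 1642 reads in thyroid Control 1, 180 in Control 3 and 49 in Control 2, or 1783, 238 and 77.5 normalized counts. Without Control 1, and with Control 2 in its place, the ATF3 log2FC was -0.11 (adjusted p = 0.931) for cold and 0.63 (adjusted p = 0.577) for AT lambs. Control 1 and AT 3, the 2 thyroid libraries with high skeletal muscle markers, were the highest for ATF3 in their groups and the highest for MYC in their groups. With both left out, which leaves Control 3 as the lone control and assumes that it varies like the other groups, ATF3 did not pass in cold lambs (log2FC of -0.72, adjusted p = 0.474) or in AT lambs (-0.34, adjusted p = 0.752). MYC did pass in that setting, with a log2FC of -1.08 in cold lambs (adjusted p = 0.00390) and -1.06 in AT lambs (adjusted p = 0.00432). JUNB (-0.99 in cold and -1.18 in AT lambs) and IER2 (-0.73 and -0.88) also stayed below an adjusted p of 0.05 in it. With Control 2 in the place of Control 1, however, MYC in cold lambs had a log2FC of -0.97 (adjusted p = 0.206) and lost its call, and of the members JUNB alone kept an adjusted p under 0.05. The MYC call in cold lambs was also lost without Cold 2, 3, 5 or 6, one at a time (log2FC of -1.65 to -1.73, adjusted p of 0.0524 to 0.0617). The setting with Control 3 alone was chosen after the data were seen.

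**Figure D3:**
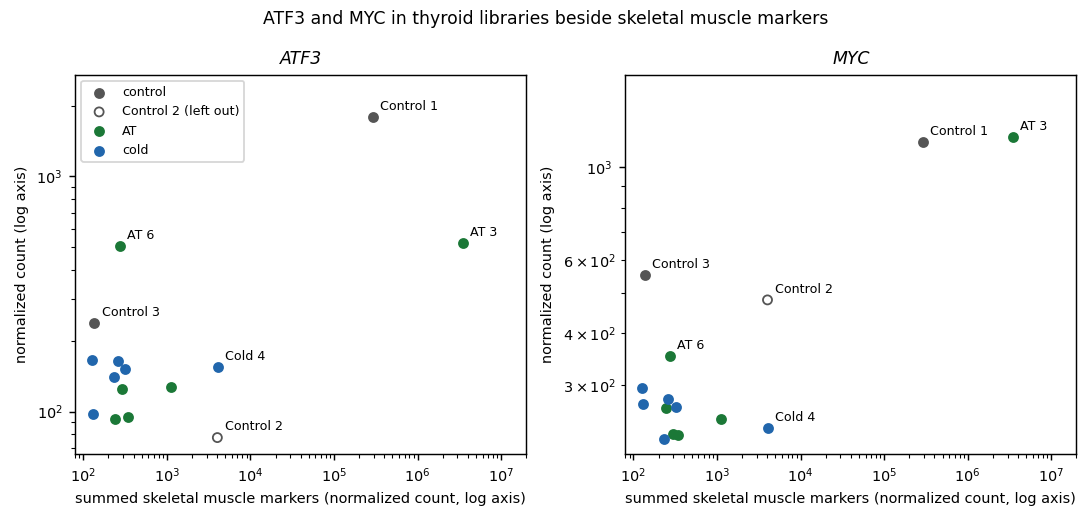
Normalized counts of ATF3 (left) and MYC (right) in each thyroid library against the summed normalized count of the skeletal muscle markers, both on log axes, with controls in grey, AT lambs in green, cold lambs in blue and Control 2 as an open circle. Control 1 and AT 3 stand apart at 289962 and 3494832 summed counts and hold the 2 highest values of both genes, except that AT 6 (507) is close to AT 3 (519) for ATF3.

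The other thyroid members varied within the groups. FOS was at 2619 and 672 normalized counts in the controls, 628 to 2829 (median 990) in AT lambs and 656 to 4304 (median 1172) in cold lambs. FOSB was at 388 and 218 normalized counts in the controls, 22.5 to 743 (median 76.5) in AT lambs and 86.7 to 923 (median 247) in cold lambs, and JUN was at 5498 and 3101, 951 to 7475 (median 4125) and 985.5 to 6032 (median 3651). AT 6 and Cold 1 held the highest FOS and FOSB of their groups. EGR1 was at 1008 and 706 normalized counts in the controls, 306 to 1035 (median 583) in AT lambs and 343 to 1262 (median 578) in cold lambs. EGR3 was at 52.1 and 60.9 normalized counts in the controls, 10.5 to 72.7 in AT lambs and 8.48 to 33.6 in cold lambs, with a log2FC of -1.55 ± 0.64 for cold lambs (edgeR adjusted p = 0.0993). DUSP1 was at 5534.5 and 4409 normalized counts in the controls, 1444 to 9643 (median 4789) in AT lambs and 2528 to 7394 (median 3687) in cold lambs. The 3 groups overlapped for FOS, FOSB, JUN, EGR1 and DUSP1.

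Between cold and AT lambs, thyroid had 0 of 10 members called by edgeR or DESeq2 and 0 with an unadjusted p under 0.05, where 0 genes in all (0%) were called and 5.40% had an unadjusted p under 0.05. The highest estimate was a log2FC of 1.06 ± 0.87 for FOSB, which moved to 2.48 without AT 6 and to 0.56 without Cold 1 and passed in neither case. The lowest estimates were those of ATF3 (-0.74) and MYC (-0.67 ± 0.39, adjusted p = 0.922), and without AT 3 they were -0.38 and -0.017. For FOS the log2FC was 0.37 ± 0.51.

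In the lambs that gave both tissues, most members stood higher in BAT than in thyroid, on a scale set by the reference genes over both tissues. In cold lambs 7 of 10 members were called higher in BAT (FOS, JUN, JUNB, EGR1, EGR3, DUSP1 and MYC), where 26.6% of all genes were. In AT lambs 6 were (FOS, JUNB, EGR1, EGR3, DUSP1 and MYC), where 26.8% of all genes were, and in the 2 controls 3 were (JUNB, EGR1 and IER2), where 16.5% of all genes were. The largest difference was that of EGR3, with a log2FC of BAT over thyroid of 2.48 ± 0.48 in cold lambs (edgeR adjusted p = 7.01e-05) and 3.50 ± 0.49 in AT lambs (adjusted p = 7.48e-07). MYC had a log2FC of 2.06 ± 0.37 in cold lambs (adjusted p = 2.95e-05) and 1.58 in AT lambs (adjusted p = 0.000536). FOS had 1.97 ± 0.56 in cold lambs (adjusted p = 0.00400) and 2.22 in AT lambs (adjusted p = 0.00160). IER2, at 0.92 ± 0.16 in cold lambs (adjusted p = 1.47e-05), was higher by adjusted p alone, as were 42.3% of all genes, and at 0.77 in AT lambs (adjusted p = 0.000131), where 43.6% were. The median log2FC of all genes was 0.33 in cold lambs and 0.35 in AT lambs on this scale. With the lamb as a block, JUN lost its call in cold lambs (log2FC of 1.40, adjusted p = 0.0513) and DUSP1 in AT lambs (1.16, adjusted p = 0.159), and in the controls JUNB (1.15, adjusted p = 0.0619) and EGR1 (1.88, adjusted p = 0.0682) lost theirs, MYC (1.26, adjusted p = 0.0435) gained one and IER2 kept its own. The DUSP1 call in AT lambs was at the threshold (1.15, adjusted p = 0.0408) and was also lost with TMM (0.84, adjusted p = 0.127), with size factors over all genes, with all 3 controls, with no filter, and without AT 1, 2, 4 or 5. With size factors over all genes JUN (1.05, adjusted p = 0.0501) and JUNB (0.89, below the fold threshold) lost their calls in cold lambs, and JUN did so without Cold 2 (1.07, adjusted p = 0.0662).

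ATF3 and FOSB were the members without a call in any group. ATF3 was higher in BAT in 4 of 6 cold lambs, 3 of 6 AT lambs and neither of the controls, and its BAT over thyroid ratio ran from 0.138 (AT 3) to 2.31 in AT lambs. Its log2FC in AT lambs was -0.86 (adjusted p = 0.123), and with TMM size factors it was called lower in BAT (-1.13, adjusted p = 0.0426). FOSB was higher in BAT in 4 of 6 cold and 4 of 6 AT lambs. JUNB, EGR3, IER2 and MYC were higher in BAT in every one of the 14 lambs. The share of all genes with such a placing was not computed, and the scale itself put the median of all genes higher in BAT. The lowest IER2 ratio was 1.19, in Cold 5. Within 1 lamb the MYC ratio ran from 3.34 to 5.35 in the cold group and the EGR3 ratio from 5.12 to 26.8 in the AT group. In AT lambs the MYC ratio ran from 1.07, in AT 3, to 10.9.

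**Figure D4:**
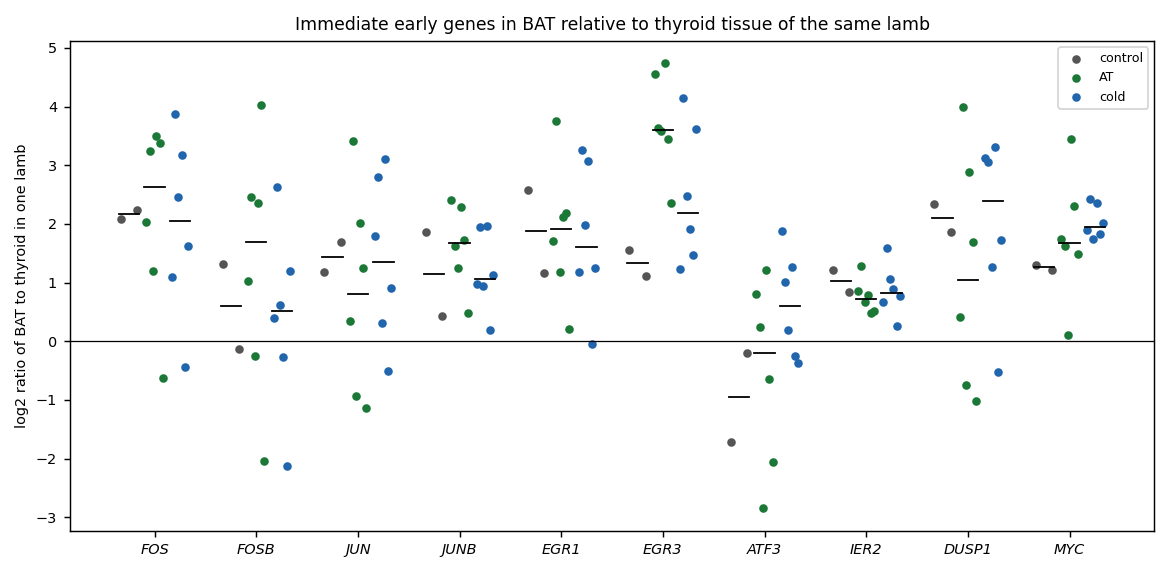
Log2 ratio of the normalized count in BAT to that in thyroid of the same lamb, for each member and each of 14 lambs, with controls in grey, AT lambs in green and cold lambs in blue; bars mark group medians and the line at 0 is an equal level. All lambs lie above 0 for JUNB, EGR3, IER2 and MYC, and lambs lie on both sides of it for the other 6 members.

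Whether a treatment moved a member differently in the 2 tissues was tested as the difference of the log2FCs. By edgeR 0 of 10 members passed for cold against control, AT against control or cold against AT, where 0.188%, 1.62% and 0% of all genes passed, and DESeq2 called 0 in each. In each, 1 member had an unadjusted p under 0.05. For cold against control it was ATF3, whose log2FC was higher in BAT by 2.20 ± 0.97 (adjusted p = 0.369). With Control 2 in the place of Control 1 the ATF3 difference was -0.82, the opposite sign. For AT against control it was EGR3 (2.17 ± 0.92, adjusted p = 0.209), and for cold against AT it was ATF3 again (1.62 ± 0.68, adjusted p = 0.538). The lower ATF3 of thyroid was therefore not shown to be particular to thyroid.

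A lamb high for a member in BAT was not, as a rule, high for it in thyroid. Pearson's r between the tissues was taken over the 12 treated lambs, pooled without removing the difference between cold and AT lambs. It was positive for 4 of 10 members, and for 70.0% of the 14403 genes measured in both. After Benjamini-Hochberg adjustment over all genes, 0 of 10 members passed. DUSP1 had the lowest unadjusted p, with r = -0.736 (permutation p = 0.00725, adjusted p = 0.187) and Spearman's rho = -0.734 (permutation p = 0.00884, adjusted p = 0.277). Its r was -0.65 within the cold lambs, -0.91 within the AT lambs and -0.60 without the 2 lambs farthest from the median in BAT. JUN, which followed DUSP1 within each tissue, had r = -0.534 (permutation p = 0.0750, adjusted p = 0.473) and rho = -0.72 (permutation p = 0.0115, adjusted p = 0.291).

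Within a tissue most pairs of members were positively correlated from lamb to lamb, with EGR3 in BAT near or below 0 with most others. These correlations are descriptions over the same 12 treated lambs, pooled without removing the difference between cold and AT lambs. Each pair shares its library and size factor. In BAT, 38 of 45 pairs of members had a positive r, with a median of 0.487, against 68.5% of pairs and a median of 0.188 over a sample of 2981 of the genes tested. In thyroid, 40 of 45 pairs did, with a median of 0.450, against 57.0% of pairs and a median of 0.0735 over 3225 genes. JUN and DUSP1 were the closest pair in both tissues, with r = 0.933 in BAT and 0.921 in thyroid. The pairs lowest in r were EGR3 and ATF3 in BAT (-0.373) and IER2 and MYC in thyroid (-0.588). Of the 12 treated thyroid libraries, AT 3 held both the lowest IER2 (1139.8 normalized counts) and the highest MYC (1182). It is also the library with the highest skeletal muscle markers. The r of IER2 and MYC without AT 3 was not computed, so how far -0.588 rests on that library is not known. The genes most like FOS in BAT, by r over all genes tested, were RASD1 (0.890), PIP4P2 (0.880), TBX18 (0.877), DUT (0.876) and RHPN1 (0.873), and the member most like it was JUN (0.827, rank 21 of all genes). With TMM size factors r fell to 0.646 for PIP4P2 and 0.667 for DUT, and was 0.851 for RASD1, 0.850 for TBX18, 0.857 for RHPN1 and 0.783 for JUN. In thyroid they were ZFP36 (0.892), a protein that binds and destabilizes AU-rich transcripts, HTRA3 (0.848), APOBR (0.841) and CFB (0.823), with JUNB (0.799) at rank 7 and EGR1 (0.794) at rank 10. EGR3 had an r of 0.036 with FOS in BAT and 0.551 in thyroid.

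**Figure D5:**
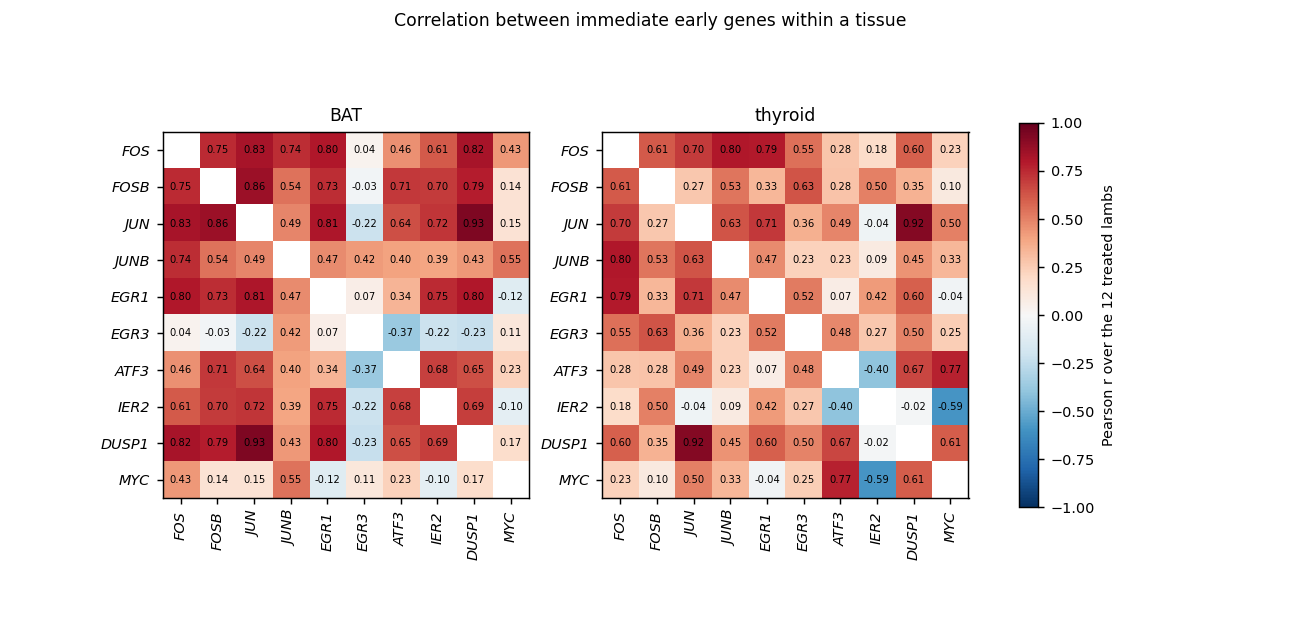
Pearson's r of each pair of members over the 12 treated lambs, cold and AT pooled, in BAT (left) and thyroid (right), on a color scale from -1 to 1. FOS, JUN, EGR1 and DUSP1 correlate positively with one another in both tissues, EGR3 is near or below 0 with most members in BAT, and IER2 has the lowest values in thyroid (-0.588 with MYC). That value includes AT 3, which held the lowest IER2 and the highest MYC of these thyroid libraries.

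Other genes of the early response were counted by role, in lists chosen with earlier results of these data known. Shares of these lists, in thyroid and in BAT, are therefore descriptions and no independent support. In thyroid, 20 of 102 list genes tested (19.6%) were called in each comparison with the controls. Of all 16122 genes tested, 1296 were called either way in cold and 1258 in AT lambs. Of the 20 list genes, 19 were lower in each comparison, where 6.15% of all genes in cold and 5.98% in AT lambs were called lower. Of all calls, 76.5 and 76.6% were toward lower values. Of 15 other early transcription factors tested, 6 were called lower in cold lambs and 6 in AT lambs, among them the helix-loop-helix inhibitor ID1, at 3000 to 8179 normalized counts in the controls, 545 to 1252 in AT lambs and 413 to 1421 in cold lambs (log2FC of -2.80 in AT and -2.74 in cold lambs). Of the 22 early effector genes, 7 were lower in each comparison, such as the salt-inducible kinase SIK1 (-2.11 and -2.23), and of 11 other AP-1 and bZIP partners 2 were, MAFF (-2.40 and -2.46) and MAFG (-1.15 and -1.01). The small Maf gene MAFF was at 589 to 1182 normalized counts in the controls, 94.2 to 229 in AT lambs and 143 to 189.6 in cold lambs. Of the attenuators, 3 were lower in each, the MAP kinase phosphatase DUSP5 (-2.18 and -2.23), the receptor signaling inhibitor SPRY4 (-1.52 and -1.82) and the cytokine signaling inhibitor SOCS3 (-1.85 and -1.56). In the MYC network, MXD3 was called higher in both (1.54 and 1.51) and MYCN lower in AT lambs, at the fold threshold. Of the upstream kinases and factors, CREM was called lower in cold lambs. With TMM size factors the early transcription factors called lower were 3 in each comparison, the effectors 5 in cold and 3 in AT lambs, and the attenuators 3 in each, and none of these called genes turned in direction. With Control 1 and AT 3 left out they were 6 in cold and 5 in AT lambs, 8 in each and 3 in each. HBEGF, a growth factor with the lowest log2FC of the effectors in cold lambs (-4.23), was at 2967 normalized counts in Control 1 and 128 in Control 3.

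In BAT, 19 of the 102 genes of these lists tested (18.6%) were called in AT lambs and 2 (1.96%) in cold lambs against the shared controls, beside 6.07% and 1.21% of all genes. In AT lambs 4 of 18 attenuators were called lower, with SPRY4 (log2FC of -2.81), ZFP36 (-2.09) and SPRY1 (-1.22) the 3 lowest, and 2 in cold lambs, ZFP36 (-1.96) and SPRY1 (-1.26). ZFP36 was at 1265 to 2343 normalized counts in the controls, 207 to 601 in AT lambs and 257 to 592 in cold lambs. Of the 22 effectors, 7 were lower and 1 higher in AT lambs, with CCN2 (-2.28), GADD45G (-1.75) and SGK1 (-1.44) lowest, and 0 were called in cold lambs. Of 16 other early transcription factors, 3 were lower in AT lambs (NR4A3 at -1.90, ID1 at -1.32 and SRF at -1.13) and 0 in cold lambs. The effector called higher in AT lambs was GADD45A. Of the remaining lists, MAFF and MAP2K1 were called lower and MXD3 and MXD4 higher in AT lambs. Between cold and AT lambs 2 of the 102 list genes tested (1.96%) were called, beside 0.275% of all genes. Both were higher in cold BAT: SGK1, a kinase induced by glucocorticoids (log2FC of 1.44, edgeR adjusted p = 0.0198), and ID1 (1.39, adjusted p = 0.0198). Both calls were lost with all 3 controls (adjusted p = 0.0997 for SGK1 and 0.125 for ID1), without Cold 4 (0.0549 for both) and without AT 5 (0.0514 for both), and that of SGK1 also without AT 3 (0.0653), while the log2FC ran from 1.34 to 1.59 for SGK1 and from 1.27 to 1.47 for ID1 over 20 settings. SGK1 was at 1855 to 2113 normalized counts in the controls, 456 to 1110 in AT lambs and 1501 to 2388 in cold lambs, and ID1 at 2480 to 4118, 714 to 1670 and 2573 to 3986. For both genes the cold lambs lay above every AT lamb and around the controls. Both were named because they were called, and the share of all genes so placed is not given.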

How the data were processed

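RNA was extracted with TRIzol from BAT and thyroid of 15 lambs, oligo(dT)-selected and sequenced on a BGISEQ-500. The authors deposited raw counts per gene: reads were checked with FastQC 0.11.9, trimmed with Trimmomatic 0.39, aligned with STAR 2.7.7a to Oar_rambouillet_v1.0 and counted with featureCounts (Subread 2.0.0), reads mapping to several places included. No strand setting was given in the sources used here.

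From those counts, genes reaching 10 reads in 10 or more libraries were kept (14905 in BAT, 16122 in thyroid, 17021 over both tissues). Library sizes came from DESeq2 1.42.0 size factors of ACTB, RPL19 and HUWE1, as in the study. Each tissue was fitted over its 3 groups with edgeR 4.0.16 (R 4.3.3; robust quasi-likelihood), with Benjamini-Hochberg adjustment over all genes tested. A gene was called at an adjusted p under 0.05 and an absolute log2FC of at least 1. A single model over both tissues gave the comparisons between them. The left-out control was identified by matching the study's normalized counts lamb by lamb to these libraries. No 2 libraries of a group were alike within sampling noise (chi-square over degrees of freedom of 38.3 or more). Lambs are separate animals, and the lamb number pairs the 2 tissues of an animal. Correlations used Python 3.11.15 and scipy 1.17.1 with 100000 permutations. The steps were tested on simulated data. Of the early response lists, the genes named are among those called within a tissue, and not every called gene is named. The members and lists were chosen with earlier results of these data known. Depth limits EGR3, ATF3 and FOSB most.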

Additional observations from a re-analysis of the deposited data

Results flagged for a closer look

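The 10 members in 2 tissues and 2 treated groups of 6 lambs gave 40 sets of values. In each, normalized counts were taken to log2 after adding 1. On that scale the gap of the highest or lowest lamb to its neighbor was divided by the range of the group. The result was set against Dixon's critical value for 6 samples, 0.625. Chance alone passes about 1 set in 20, and 2 of 40 passed. For MYC in thyroid of AT lambs the highest was AT 3, at 1182 normalized counts against 353 for the next lamb, a gap of 0.734 of the log2 range. AT 3 is also the thyroid library with the highest skeletal muscle markers (3494832 summed normalized counts), and their part in its MYC value was not tested. For ATF3 in thyroid of cold lambs the lowest was Cold 1, at 97.2 normalized counts against 139.6 for the next lamb, a gap of 0.675 of the log2 range. The skeletal muscle marker sum of the cold thyroid libraries was at most 4084, reached by Cold 4.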

How the results depend on the processing

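Members called are counted here by comparison. Where a control was left out, Control 2 took its place. For BAT cold against control (0 called) the count was 1 with all 3 controls and 1 with all 3 controls and TMM. It was 0 leaving out any 1 cold lamb, and 1 with Control 2 in the place of Control 3. For BAT AT against control (0) it was 1 with DESeq2, 1 with all 3 controls, 1 with the 2 groups fitted alone (IER2), 2 with all 3 controls and TMM (ATF3 and MYC), 1 by adjusted p alone and 0 to 2 leaving out lambs. For BAT cold against AT (0) it was 1 with DESeq2. For thyroid cold against control (2) it was 1 with TMM, 1 with DESeq2's size factors over all genes, 0 with all 3 controls and TMM, 1 with Control 3 alone and no AT 3, 4 by adjusted p alone and 0 to 2 leaving out lambs. For thyroid AT against control (1) it was 0 with TMM, with size factors over all genes, with all 3 controls, with no filter on low counts, with RNA integrity as a covariate, with the 2 groups alone and with all 3 controls and TMM, 2 with Control 3 alone and no AT 3, 3 by adjusted p alone and 0 to 3 leaving out lambs. For BAT against thyroid in the controls (3) it was 5 with all 3 controls and 1 with no filter. The cause of these changes was not tested, beyond the fewer or other samples of a setting. The lamb block changed the calls named with the tissue comparison and no other member's call.

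Directions turned for IER2 in BAT of cold lambs, with a log2FC of 0.066 when Control 2 took the place of Control 3. It ran from -0.79 to that value leaving out or exchanging lambs. IER2 in thyroid of cold lambs turned to 0.0028 with all 3 controls and TMM and to 0.12 with Control 2 in the place of Control 3. It ran from -0.55 to 0.12 leaving out or exchanging lambs, and was -0.73 with Control 3 alone and no AT 3. ATF3 in thyroid of AT lambs turned to 0.63 with Control 2 in the place of Control 1, and was -2.43 without AT 3. The tissue difference of ATF3 in cold lambs turned to -0.82 with that exchange, and reached 2.35 without Cold 5. Of the members' estimates without a call in any setting and without an unadjusted p under 0.05, 24 of 42 within tissues, 2 of 8 between tissues and 19 of 27 tissue differences turned in sign in at least 1 setting, so their directions were not stable. Over all genes, calls moved from 181 to 318 with TMM, 628 with DESeq2 and 727 with all 3 controls in BAT of cold lambs, from 41 to 145 with DESeq2 and 0 with all 3 controls in BAT cold against AT, from 904 to 488 with the 2 groups alone in BAT of AT lambs, and from 1296 to 792 in thyroid of cold and 1258 to 744 in thyroid of AT lambs with TMM. With TMM the share of calls that were lower moved from 76.5 to 42.4% in thyroid of cold lambs and from 76.6 to 36.3% in AT lambs, and in BAT from 52.5 to 28.6% and from 52.9 to 36.1%. The 2 controls limit every comparison with them.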

Other observations

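Control 2, which no comparison above used unless named, had a member profile of its own in BAT. It held the highest MYC (1435 normalized counts), JUNB (2358) and ATF3 (312) of all 15 BAT libraries, while its IER2 (600.2), JUN (1302) and DUSP1 (1482) lay below both other controls. These values rest on a size factor of 0.465, the lowest in BAT, on which its reference genes did not agree. Its RPL19 was at 18573 normalized counts (8155 and 9826 in the other controls) and its HUWE1 at 1663 (3356 in both). In thyroid the same lamb was below both other controls for all 10 members, with ATF3 at 77.5, MYC at 481, FOS at 601 and EGR3 at 15.8 normalized counts. The summed brown adipocyte markers of its BAT were at 303721 normalized counts, against 13767 to 94749 in the other 14 libraries, and its endothelial markers at 14823 against 32992 to 60116. The part of cell makeup in these values was not tested.

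Several thyroid libraries held transcripts of the parathyroid and C cell markers. Their summed normalized count ran from 246 in AT 6 to 254089 in AT 4. The 5 highest libraries were AT 4, Cold 4 (169854), AT 5 (116121), Control 2 (78734) and AT 2 (60094), and Control 1 was at 30835 and Control 3 at 616. Their part in the values of the members was not tested.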
